A study of Mus musculus with 17 samples.

Results

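Beta cells that remained 1 to 2 months after streptozotocin (STZ), a toxin that enters cells through the glucose transporter of beta cells, were described from 6 libraries of single mouse pancreatic cells. A cell counted as a beta cell when its value for the insulin gene Ins2 in the authors' deposited signal table (UMIs per 100000 UMIs of the cell, leaving hormone genes out) was at least 3000 and at least 3 times each value of Gcg, Sst and Ppy. These genes encode glucagon, somatostatin and pancreatic polypeptide. The value for Prss2, a trypsinogen of acinar cells, also had to be under 1500. The rule gave 403 beta cells in these libraries, of 2999 cells in all 17 libraries of the series. Only 44 of them came from STZ-treated mice, 23 at day 30, 15 at day 42 and 6 at month 2, and 359 from controls, with 209, 129 and 21 in control libraries 1, 2 and 3.

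All mice were male and carried Ngn3-Cre with Rosa-RFP, which marks descendants of cells that once expressed the endocrine progenitor factor Neurog3 with a red protein, and red cells were sorted and picked by mouth pipette. STZ was given once into the abdomen at 200 mg/kg, at 2 months of age and after an overnight fast. These STZ mice also carried insulin implants. Below, "after STZ" therefore means STZ together with implants, and the part of each was not tested. Controls of matched age received citrate buffer and carried no STZ, and how long after the injection they were sampled is not given in the sources used here. Each STZ time is a single library, so the 3 times were taken as an arm of 3 against 3 controls, and its spread includes any change between times. Nothing in the labels says that libraries came from separate animals, so p-values measure only the spread between these libraries. All 3 STZ libraries carry batch number 1, whereas the controls carry numbers 1, 2 and 3.

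Mature beta cells take up glucose through Slc2a2, burn it to raise ATP, close potassium channels and release insulin from dense granules. They switch on late genes such as Ucn3 after birth and keep out genes of progenitors and of other islet cells. In diabetes models, beta cells are known to lose late genes and to regain immature ones, a state called dedifferentiation, while some still make insulin.

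Beta cells held between 306920 UMIs (unique molecular identifiers, each of which tags an original RNA molecule) at month 2 and 13411734 in control 1, summed over the cells of a library. The median beta cell held 46706 to 72021 UMIs after STZ and 57361 to 69993 in controls, so depth per cell overlapped. Across the 3 STZ libraries Ins2 made up 81549 to 123234 CPM (a gene's UMIs scaled to a library total of 1000000), against 101970 to 105850 in controls, which the rule itself required to be high. Of markers the rule did not use, Ins1 (the other mouse insulin gene) stood at 55672, 61018 and 94963 CPM after STZ and 87926 to 89945 in controls, and Iapp (amylin, released with insulin) at 48514 to 69151 against 51269 to 52844. For Ins1, days 30 and 42 lay below every control and month 2, with its 6 cells, above. For Iapp, day 30 lay below every control and day 42 and month 2 above. Both genes stayed at high levels in each STZ library, so the cells carried beta-cell hormones. Mafa, a factor of mature beta cells, is listed at 0 UMIs in all 6 libraries, controls included, and gave no information.

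Beta cells were scarce among hormone-rich cells after STZ. They were 19.5% of cells rich in any of the 4 hormones at day 30 (23 of 118, exact Clopper-Pearson 95% interval 12.8 to 27.8%). The share was 12.5% at day 42 (15 of 120, 7.17 to 19.8%) and 8.0% at month 2 (6 of 75, 2.99 to 16.6%). Control libraries stood at 82.0%, 69.4% and 95.5%, so every STZ library lay below every control. The mean was 13.3% ± 5.79 (SD, n = 3) against 82.3% ± 13.1 (SD, n = 3), a difference of -68.9 percentage points with an exact two-sided permutation p of 0.1, the smallest that 3 against 3 allows. Intervals cover counting error only, and sorting and picking can set shares. Cells rich in Prss2 and poor in Ins2 numbered 154, 98 and 102 in the STZ libraries and 21, 76 and 0 in controls, and their part in the sampling was not tested. Near the edges of the rule, 2, 5 and 2 cells of the STZ libraries and 13, 11 and 0 of the controls had enough Ins2 but under 3 times another hormone. Among accepted cells, 5, 4 and 1 after STZ and 2, 2 and 4 in controls lay between 3 and 10 times.

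**Figure D1:**
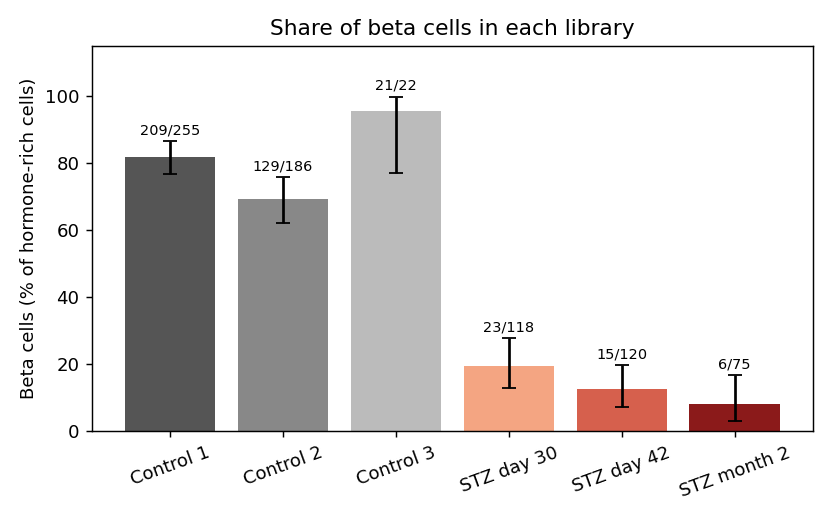
Bars give beta cells as a percent of cells with Ins2, Gcg, Sst or Ppy at 3000 or more and Prss2 under 1500, for each of the 6 libraries, with exact 95% intervals and the cell counts above. The STZ libraries stand at 8.0 to 19.5%, the controls at 69.4 to 95.5%.

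UMIs of the beta cells of each library were summed and compared with edgeR's quasi-likelihood test, and a gene was called where its Benjamini-Hochberg adjusted p was under 0.05. Of 9059 genes tested, genes of the cell rule aside, 100 were called, which is 1.1%. Of these, 50 rose and 50 fell, 0.552% in each direction, and the median log2 fold change of all genes was -0.02. With library totals taken without hormone genes, which moved that median to -0.13, 41 rose and 67 fell, or 38.0% of 108 called genes higher. At an unadjusted p under 0.05 there were 967 genes (10.7%). For 1559 genes (17.2%) the 3 STZ and 3 control values did not overlap. The size of the list rested on single libraries. Leaving out control 1, control 2, day 30 or day 42 left 37, 42, 54 or 52 called genes. Leaving out month 2, with its 6 beta cells, gave 245, which held all 100. Of 43 called genes chosen for their size or list, 22 kept their call whichever library was left out. The other 21, among them Trpm5, Pcx, P2ry6, Ero1lb, B2m, Hspa1a, Chgb, Pdk1 and Gpi1, lost it without at least 1 library, and Pcx, Chgb, Ica1l and RP23-273G4.1 without any 1 of 5.

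Genes listed for beta-cell maturity fell together. Of 15 tested members of the maturity list, 10 fell (0.552% of all genes did) and 0 rose. The median log2 fold change was -1.74 against -0.02 for all genes. The list was chosen with earlier results of these data known, so the count is a description. Ucn3, a peptide released with insulin that marks mature mouse beta cells, stood at 77.1, 86.3 and 97.8 CPM at days 30 and 42 and month 2, against 927.2, 781.7 and 638.7 in controls. Every STZ value was far below every control value. Its log2 fold change was -3.09 ± 0.24 (SE), with an edgeR adjusted p of 1.58e-05.

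Genes at several steps of glucose handling fell. Slc2a2, the glucose transporter GLUT2 and the route by which STZ enters beta cells, stood at 61.1, 83.4 and 42.4 CPM after STZ and at 617.7, 534.4 and 445 in controls. It fell by 2.95 ± 0.26 on the log2 scale (edgeR adjusted p 3.27e-05), with the lowest value at month 2. G6pc2, an islet glucose-6-phosphatase, fell from 4588, 3301 and 3777 CPM to 789, 896.5 and 1091, a log2 fold change of -1.97 ± 0.23 (edgeR adjusted p 0.000532). Trpm5, a calcium-activated cation channel of the plasma membrane, fell by 3.30 ± 0.53, with month 2 (42.4 CPM) nearest to the controls (109 to 176 CPM) and days 30 and 42 at 5.93 and 8.48 CPM. Pcx, the mitochondrial pyruvate carboxylase, fell by 1.55 ± 0.34. In all, 5 of the 13 tested genes of glucose sensing and electrical activity fell and 1 rose, with a median of -0.49. Of all genes, 0.552% were called in each direction. This is not separate from the maturity list, since Slc2a2, Gad1, G6pc2 and Trpm5 were counted there too, and only Pcx was not. The riser was Tmem27, also known as collectrin, a membrane protein of beta cells, at 2531, 2523 and 1440 CPM against 791.6 to 1009.

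Abcc8, which encodes the sulfonylurea receptor of the potassium channel, was not among the called genes. It differed by 0.52 ± 0.21 on the log2 scale, with an edgeR adjusted p of 0.351, and this does not show that it was unaltered.

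Gad1 and Adam32 were close to undetected. Gad1, which makes the transmitter GABA in beta cells, gave 6, 0 and 0 UMIs in the STZ libraries and 1687, 765 and 118 in controls, so the STZ values lay at 3.56 CPM or below against 85.9 to 125.8. Its log2 fold change was -5.54 ± 0.53 (edgeR adjusted p 5.23e-05). Adam32, a member of a family of membrane proteins best known from sperm, had 0 UMIs in all 3 STZ libraries against 531, 395 and 99. It was at least 49.2-fold lower, taking 3 UMIs over the STZ arm as the floor, with an edgeR adjusted p of 0.000569. Nqo1, a quinone reductase that NRF2 induces under oxidative stress, was also at 0 UMIs in the 3 STZ libraries, against 159, 53 and 21, which is at least 10.2-fold lower. Its call was borderline, at an edgeR adjusted p of 0.0483.

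Cox6a2, a heart and muscle type subunit of cytochrome c oxidase, stood at 21.9, 16.97 and 81.5 CPM after STZ and 313.5 to 348.1 in controls, and fell by 3.23 ± 0.42. Of 71 tested genes of oxidative phosphorylation, 2 fell, Cox6a2 among them, and 0 rose (0.552% of all genes each way), with a median of 0.06. P2ry6, a receptor for the nucleotide UDP, and Spock1, a secreted proteoglycan, fell by 4.73 ± 0.92 and 4.20 ± 0.65. Fer1l6, Emid1, RP23-273G4.1, Asb11, T2 and Ica1l completed the 15 largest falls, at log2 fold changes from -4.35 to -3.03. Of the granule and exocytosis genes, Sytl4 (granuphilin, which docks insulin granules) fell by 1.74 ± 0.29, from 237.9 to 274.6 CPM in controls to 78.3, 39.6 and 104.3.

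Of 20 tested transcription factors of beta cells, only Nkx6-1 was called, where 1.1% of all genes were. Nkx6-1, a homeodomain factor required for mature beta-cell function, stood at 78.3, 66.5 and 97.8 CPM after STZ and 196.2, 291.1 and 240.3 in controls, a log2 fold change of -1.52 ± 0.25 (edgeR adjusted p 0.00624). Neurod1, a basic helix-loop-helix activator of insulin genes, was at 162.9 to 181.5 CPM after STZ and 277.4 to 364.9 in controls. Its values did not overlap, but its difference of -0.71 ± 0.21 had an edgeR adjusted p of 0.16. Pdx1, the homeodomain activator of insulin, differed by -0.50 ± 0.25 with overlapping values (edgeR adjusted p 0.519), and the median of the list was -0.07.

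Genes listed as immature or dedifferentiated islet genes made up several of the largest rises. Of 16 tested members of that list, 5 rose (0.552% of all genes did) and 0 fell, with a median of 0.37. The list was chosen with earlier results of these data known, so this count does not by itself show an immature state. Tspan8 was also on the list of PP-cell genes and Rbp4 on that of delta-cell genes. Slc5a10, a sodium-coupled sugar transporter best known from kidney, stood at 195.2, 287.1 and 45.6 CPM after STZ and at 1.57, 1.06 and 0 in controls. Its log2 fold change of 7.32 ± 0.61 was the largest rise (edgeR adjusted p 1.82e-05), and month 2 was the lowest STZ library. Tspan8, a cell-surface tetraspanin, stood at 274.7, 285.6 and 270.4 CPM against 28.6, 34.2 and 43.0. Its 3 STZ libraries were almost level, with a log2 fold change of 3.10 ± 0.25 (edgeR adjusted p 1.79e-05).

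Rbp4, the blood carrier of retinol and a gene of delta cells, stood at 746.3, 1305 and 488.7 CPM after STZ and at 67.0, 92.0 and 48.1 in controls, a log2 fold change of 3.73 ± 0.35 (edgeR adjusted p 5.1e-05). Cd81, a tetraspanin found on immature beta cells in mouse, stood at 575.4, 485.0 and 511.5 CPM against 182.8, 183.5 and 96.1, and rose by 1.86 ± 0.24. Serpina7, the thyroxine-binding globulin, was called as well, but its values overlapped. It stood at 350.6 and 130.1 CPM at days 30 and 42 and at 3.26 CPM at month 2, against 17.4 to 29.1 in controls. Genes that beta cells keep low could not be followed, since 0 of 17 passed the filter on low counts. Neurog3, the progenitor factor itself, was at 0 UMIs in all 6 libraries.

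**Figure D2:**
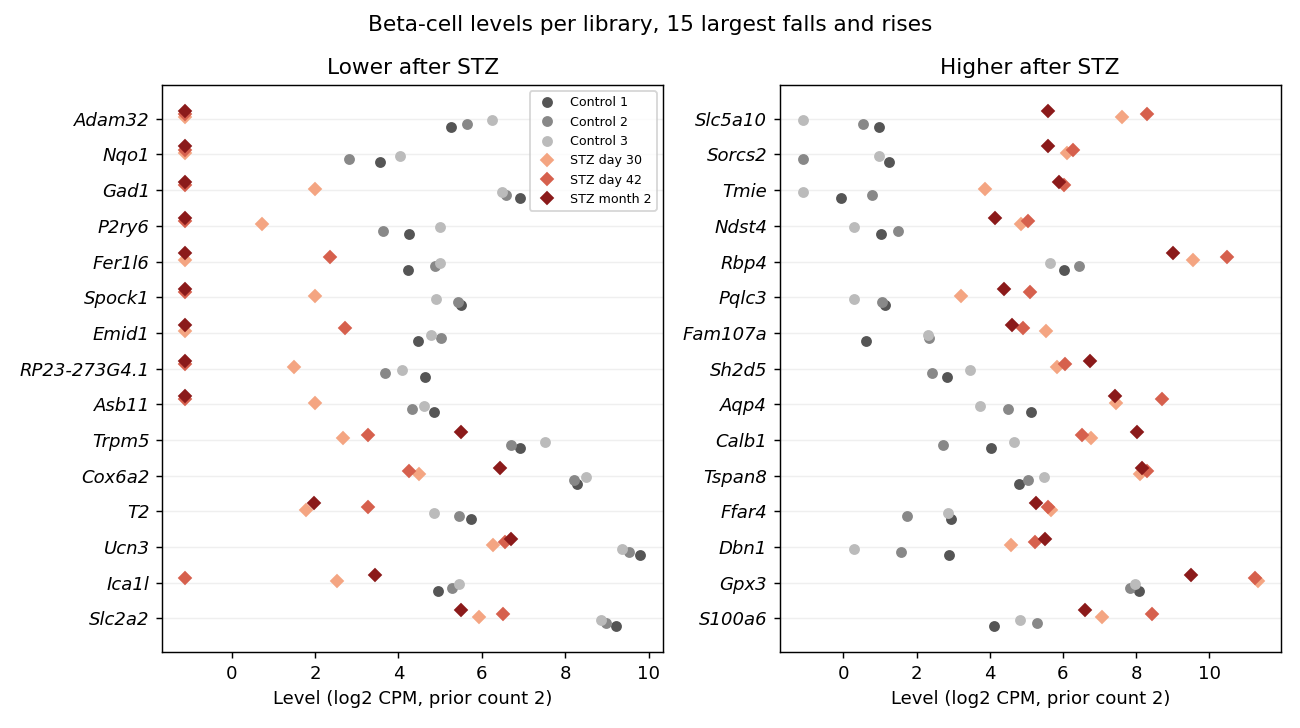
Each row is 1 of the 15 called genes with the largest fall (left) or rise (right) whose groups did not overlap, each circle a control library and each diamond an STZ library, in log2 CPM with a prior count of 2. Points at the far left, near -1.11, are libraries with 0 UMIs. Adam32 and Nqo1 lie there in all 3 STZ libraries, and Slc5a10 in control 3.

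Aqp4, a water channel, stood at 175.0, 383.2 and 162.9 CPM after STZ and 35.8, 23.5 and 12.4 in controls, a log2 fold change of 3.39 ± 0.39 (edgeR adjusted p 0.000518). Sorcs2, a sorting receptor of the VPS10 family, gave 117, 50 and 14 UMIs after STZ, or 69.4, 70.7 and 45.6 CPM, against 27, 0 and 2 UMIs. Calb1, the calcium buffer calbindin, stood at 108.0, 83.4 and 244.4 CPM against 16.6, 6.48 and 24.0, with month 2 highest. Their log2 fold changes were 5.83 ± 0.71 and 3.34 ± 0.49. Gpx3, a secreted glutathione peroxidase, rose from 240.6 to 280.5 CPM to 2565, 2226 and 677.7, with a log2 fold change of 2.94 ± 0.37 (edgeR adjusted p 0.000737). It was the single riser and Nqo1 the single faller among 26 tested genes of the oxidative stress response, whose median was 0.15. Of all genes, 0.552% were called in each direction.

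Ffar4, a receptor for long-chain fatty acids, rose by 3.07 ± 0.47, and S100a6, a small calcium-binding protein, by 2.81 ± 0.43. The adaptor Sh2d5 stood at 56.4, 60.8 and 101.0 CPM against 5.16 to 10.2 and rose by 3.43 ± 0.43. Tmie, Ndst4, Pqlc3, Fam107a and Dbn1 completed the 15 largest rises, at log2 fold changes from 3.06 to 5.82. All 15 genes lay higher in each STZ library than in every control, which the naming rule required. Chgb, a granule protein of the chromogranin family, stood at 5371, 4830 and 2769 CPM against 1474 to 2241 and rose by 1.32 ± 0.26. It was the single riser among 18 tested genes of insulin and granule peptides (0.552% of all genes rose), whose median was 0.26.

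Promoters of 4 genes are printed to show the starts of 2 genes that fell (Ucn3, Slc2a2) and 2 that rose (Tspan8, Slc5a10). The sequences are from RefSeq for GRCm38.p6, which is the build mm10, and run 5′ to 3′ from 250 bases before to 50 bases after the annotated start. Capitals mark matches, on either strand, to 6 motifs of factors known in islets or in glucose response. These were the E-box CAGATG of the NeuroD1 type, the homeodomain palindrome TAATTA, the MAF half-site TGCTGA, the forkhead site TGTTTAC, the HNF1 half-site GTTAAT and the E-box CACGTG. The window of Ucn3 is chr13:3945300-3945599 on the minus strand, with 1 match, and that of Slc2a2 chr3:28697653-28697952 on the plus strand, with 0. The window of Tspan8 is chr10:115817034-115817333 on the plus strand, with 2 matches. Slc5a10 has 2 annotated starts, and the first, chr11:61720750-61721049 on the minus strand, is shown, with 4 matches. The second, chr11:61719936-61720235, is not shown and had 1 match, to CAGATG, so the number depends on the start chosen.
Ucn3: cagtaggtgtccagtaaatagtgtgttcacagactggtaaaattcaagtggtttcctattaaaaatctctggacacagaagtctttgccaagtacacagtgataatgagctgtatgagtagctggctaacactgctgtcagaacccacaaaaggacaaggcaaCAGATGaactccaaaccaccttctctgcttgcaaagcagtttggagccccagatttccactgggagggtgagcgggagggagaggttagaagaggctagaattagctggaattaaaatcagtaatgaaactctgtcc
Slc2a2: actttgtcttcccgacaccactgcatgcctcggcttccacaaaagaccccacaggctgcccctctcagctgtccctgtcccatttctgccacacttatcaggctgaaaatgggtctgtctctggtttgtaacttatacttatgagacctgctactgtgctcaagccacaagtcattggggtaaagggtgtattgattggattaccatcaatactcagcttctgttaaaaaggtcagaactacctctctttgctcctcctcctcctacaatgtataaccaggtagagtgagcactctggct
Tspan8: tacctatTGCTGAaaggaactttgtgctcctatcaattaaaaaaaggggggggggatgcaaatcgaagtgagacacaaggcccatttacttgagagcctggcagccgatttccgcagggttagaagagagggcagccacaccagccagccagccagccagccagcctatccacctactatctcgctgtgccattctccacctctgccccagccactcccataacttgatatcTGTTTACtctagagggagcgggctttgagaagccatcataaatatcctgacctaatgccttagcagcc
Slc5a10: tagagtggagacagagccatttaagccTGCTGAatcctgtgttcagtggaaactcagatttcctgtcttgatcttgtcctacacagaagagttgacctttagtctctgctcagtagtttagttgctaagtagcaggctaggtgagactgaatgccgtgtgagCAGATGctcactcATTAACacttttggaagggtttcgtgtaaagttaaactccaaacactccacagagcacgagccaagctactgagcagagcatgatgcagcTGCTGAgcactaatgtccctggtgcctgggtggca

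Matches describe these windows only, and overlaps of motifs were allowed. TGCTGA was found in 16.1% of 62 start windows of 37 risers that had an entry, in 22.0% of 50 windows of 38 fallers, and in 19.5% of all 32851 windows. CAGATG was found in 9.68%, 12% and 17.2% of the same sets. TGTTTAC was found in 4.84%, 2.00% and 3.65%, GTTAAT in 11.3%, 4.00% and 7.10%, CACGTG in 3.23%, 8.0% and 7.15%, and TAATTA in 1.61%, 4.00% and 5.29%.

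Glucose-induced genes and glycolysis held a few risers. Pdk1, a mitochondrial kinase that inhibits pyruvate dehydrogenase, stood at 48.7, 80.6 and 74.9 CPM after STZ and at 19.5 to 20.4 in controls. It rose by 1.85 ± 0.34 (edgeR adjusted p 0.0154). Gpi1, the glucose-6-phosphate isomerase, rose by 1.66 ± 0.27. In all, 2 of 14 glucose-responsive genes rose and 1 fell (median 0.60), and 3 of 20 glycolysis genes rose and 0 fell (median 0.19). Of all genes, 0.552% were called in each direction.

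The stress lists held about as few called genes as the 1.1% of all genes would give, so their counts say nothing particular about them. None of 17 tested genes of the p53 and DNA damage response was called (median 0.03), nor any of 19 targets of ATF4 and CHOP (median -0.25). In the latter list Trib3, a pseudokinase induced by CHOP, stood at 32.0, 9.90 and 39.1 CPM against 3.43, 1.59 and 8.01. Its values did not overlap, and its difference of 2.91 ± 0.70 had an edgeR adjusted p of 0.065. Cdkn1a, the cell-cycle inhibitor p21, stood at 334.0, 84.8 and 16.3 CPM after STZ and 51.8 to 171.9 in controls, so day 30 was above and month 2 below every control. Its difference of 0.72 ± 0.61 had an edgeR adjusted p of 0.789, and it was -0.71 without day 30. Ddit3, which encodes the stress factor CHOP, differed by -0.34 ± 0.50 (edgeR adjusted p 0.898), a direction that turned to 0.31 without control 3. Of 26 tested genes of the unfolded protein response 22 had a log2 fold change above 0, with a median of 0.24, against 4393 of all 9059 genes. This was not particular to the list, since 75 of 77 cytosolic ribosomal proteins and 13 of 14 glucose-responsive genes were also above 0. By the test 0 of the 26 rose and 1 fell, Ero1lb, an oxidase of the endoplasmic reticulum that serves proinsulin folding. It stood at 643.7, 517.5 and 694.0 CPM against 1385 to 1633, a fall of 1.16 ± 0.20.

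Among the other lists, B2m, the light chain of class I antigen molecules, was the 1 called gene of 13 in antigen presentation, at 56.4, 31.1 and 42.4 CPM against 91.0 to 169.1. Hspa1a, an inducible chaperone that rises with cell dissociation, was the 1 called gene of 20 immediate early and dissociation genes. It fell by 2.08 ± 0.46, and 1.1% of all genes were called. No gene was called among 21 of cholesterol synthesis (median 0.20), 14 of fatty acid uptake and oxidation (0.17), 14 of the circadian clock (-0.10), 7 of cell division (0.50) and 77 cytosolic ribosomal proteins (0.30). Mki67, a marker of cycling cells, gave 21, 8 and 4 UMIs after STZ and 170, 34 and 0 in controls, and its difference of 1.02 ± 0.81 had an edgeR adjusted p of 0.77.

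**Figure D3:**
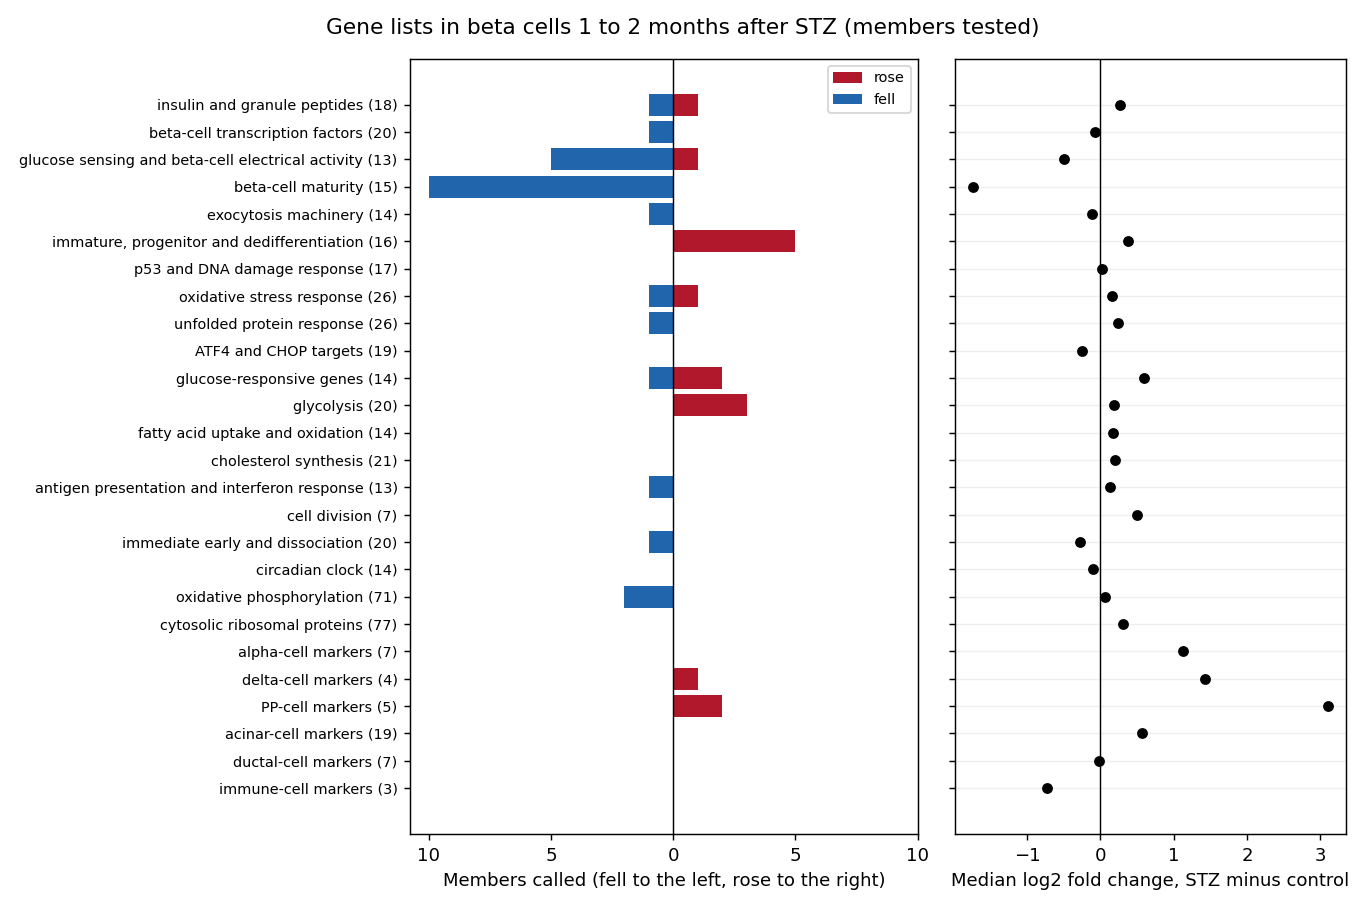
For each gene list (members tested in parentheses), bars at the left give the number of members that fell (leftward) or rose (rightward) with edgeR, and dots at the right the median log2 fold change of the tested members. The maturity list has 10 fallers and a median of -1.74, and the list of immature genes 5 risers.

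Levels of other islet hormones differed in direction in the same cells. Sst, which the rule used as a limit, stood at 1112, 526.0 and 361.7 CPM after STZ and 214.8 to 226.0 in controls, and Ppy at 4077, 5144 and 7158 against 468.7, 783.3 and 1661. Gcg stood at 898.8, 782.0 and 1153 CPM after STZ and 1135, 1183 and 5192 in controls, so its values overlapped and the highest was in control 3. Without Sst, the summed level of the other 9 genes of the delta-cell list was 1224, 1896 and 576.7 CPM against 135.0, 279.2 and 322.6, and Rbp4 made up most of it after STZ. Without Ppy, the other 7 genes of the PP-cell list summed to 1888, 2875 and 7992 CPM against 538.5, 794.4 and 2292, and these ranges overlapped. Of the other tested members, 1 of 4 delta-cell genes (Rbp4) and 2 of 5 PP-cell genes (Aqp4 and Tspan8) rose, where 0.552% of all genes did. At month 2, Aqp4 and Tspan8 stood at 162.9 and 270.4 CPM, a small part of the PP-cell sum of 7992. The delta-cell factor Hhex lay at 2.37, 2.83 and 0 CPM against 6.86, 2.38 and 0, and the delta-cell receptor Ghsr and the PP-cell genes Chrm2 and Sertm1 were at 0 in every library. None of 7 tested alpha-cell and 19 tested acinar genes was called. Of these, 5 and 17 had a log2 fold change above 0, with medians of 1.13 and 0.57. All 14 genes of the alpha-cell list, Gcg included, summed to 3486 to 5795 CPM after STZ against 5333 to 10220. Without Gcg the sums were 4896, 4457 and 2333 CPM against 4197, 4227 and 5028, and these ranges overlapped. The acinar list, Prss2 included, summed to 30845 to 36621 CPM against 8512 to 46076.

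The comparison was repeated in cells with little of another hormone. With Ins2 required to be at least 10 times each other hormone, a rule added after the data were seen, Slc5a10 rose by 7.53, Rbp4 by 3.85, Aqp4 by 3.42 and Tspan8 by 2.67. Their edgeR adjusted p were 4.4e-06, 0.000167, 0.000167 and 0.000167, and 68 genes were called. Of 59 named genes tested there, 51 kept their side of the threshold and 8 lost their call, among them Calb1 at 2.05 (edgeR adjusted p 0.0828). With Prss2 also under 300 the STZ libraries kept only 3, 4 and 2 beta cells, and 25 of 4415 genes were called. The log2 fold changes there were 7.86 for Slc5a10, 3.23 for Tspan8, -3.35 for Ucn3 and -2.71 for Slc2a2.

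Part of the cells shared a prefix in the names of their raw read files, and what that prefix stands for is not given. In 1 such group, here called the shared run, 5 cells of day 30 and the 6 cells of month 2 stood beside control 2. Within it, 20 of 5487 genes were called, with the 1 control library assumed to vary like the STZ libraries. Ucn3 differed there by -2.61, Slc2a2 by -3.96, G6pc2 by -1.76, Rbp4 by 2.59, Tspan8 by 2.74 and Aqp4 by 2.53, all called by edgeR. Slc5a10 differed by 5.16 and Nkx6-1 by -1.06 without a call (edgeR adjusted p of 1 for both), and S100a6 by 0.39.

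In single cells, risers were detected in a larger share of beta cells after STZ and fallers in a smaller one. Each beta cell was thinned to 30012 UMIs, which left out 4, 3 and 0 STZ cells and 23, 9 and 2 control cells as too shallow. Slc5a10 then had a UMI in 11 of 19, 9 of 12 and 2 of 6 STZ cells, or 57.9%, 75.0% and 33.3%, against 2.69%, 2.5% and 0% of control cells. Without thinning the shares were 56.5%, 80.0% and 33.3% against 3.35%, 2.33% and 0%. In cells rich in Prss2 and thinned alike it was found in 1.32%, 1.02% and 0% after STZ, where the median cell had held 107458 to 189171 UMIs before thinning. Aqp4 was found in 63.2%, 83.3% and 100% of STZ beta cells, against 33.9%, 28.3% and 5.26%, and in at most 2.04% of Prss2-rich STZ cells. Tspan8 was found in 89.5%, 83.3% and 83.3% against 29.0%, 29.2% and 36.8%, with 12.2 to 16.4% in Prss2-rich STZ cells. Rbp4 was found in 73.7%, 91.7% and 66.7% against 33.9%, 37.5% and 42.1%. In Prss2-rich STZ cells it was found in 36.8%, 32.7% and 28.3%. The median thinned STZ beta cell held 3, 4 and 12 UMIs of Rbp4 and the highest 125, 219 and 73. In controls the medians were 0 and the highest cells held 45, 110 and 23. The shares of each gene did not overlap between the arms.

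Ucn3 kept a UMI in 42.1%, 33.3% and 50.0% of thinned STZ beta cells and in 98.9%, 95.8% and 94.7% of control cells. In the Prss2-rich cells of controls 1 and 2 it was found in 38.1% and 15.8%, and after STZ in at most 0.658%. Slc2a2 was found in 47.4%, 58.3% and 33.3% against 98.9%, 96.7% and 100%. Gad1 was found in 1 of 19, 0 of 12 and 0 of 6 STZ cells, where 0 allows up to 26.5% and 45.9% (exact 95% upper bounds), against 66.7%, 55.0% and 63.2% of control cells. G6pc2 was still found in 78.9%, 75.0% and 83.3% of STZ cells, but the median thinned cell held 16, 15 and 31 UMIs of it, against 137.5, 93 and 106 in controls. The 12 genes examined in this way were chosen for their difference in summed counts, so their shares are a description with no test.

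Risers also met in the same cells. Of the 6 genes Tspan8, Slc5a10, Rbp4, Aqp4, Sorcs2 and Sh2d5, at least 4 had a UMI in 57.9%, 75.0% and 50.0% of thinned STZ beta cells and in 2.69%, 0% and 5.26% of control cells. No STZ cell lacked all 6, whereas 63, 44 and 7 control cells did. The 6 were chosen for their rise, so these values describe how the rise was spread over cells and support nothing further.

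**Figure D4:**
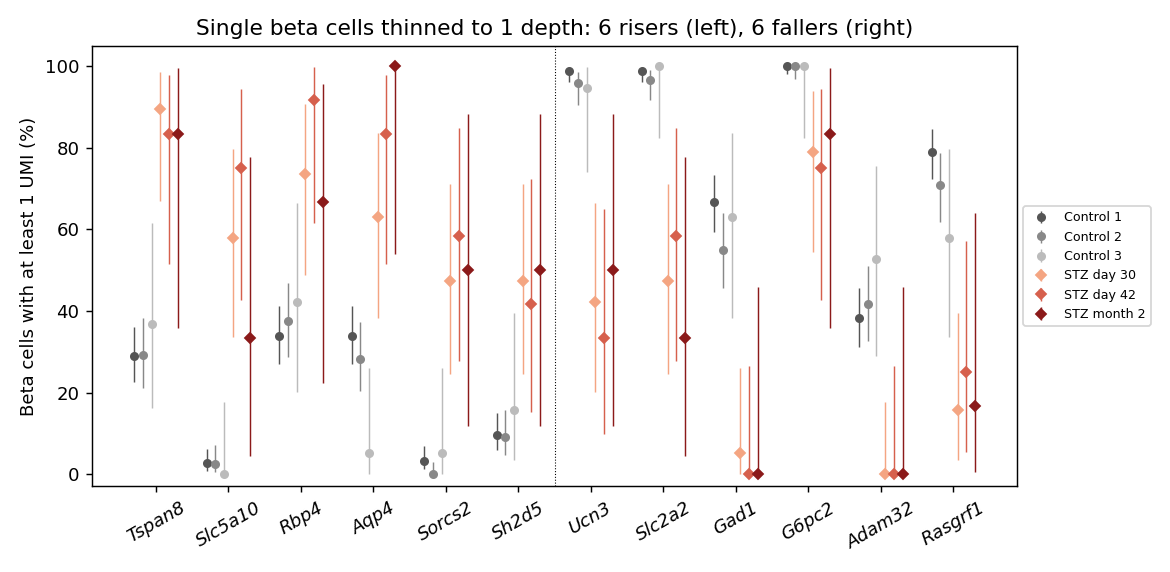
Points give the percent of beta cells with at least 1 UMI of a gene after thinning each cell to 30012 UMIs, with exact 95% intervals, for 6 risers (left of the dotted line) and 6 fallers (right). STZ libraries (diamonds) and controls (circles) do not overlap for any of the 12 genes, and Adam32 was found in no STZ cell.

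Each time was also set against the controls in a fit of all 17 libraries, in which a single library was assumed to vary like the replicated groups. Of 12758 genes, 28 were called at day 30 (0.219%), 20 higher (0.157%) and 8 lower (0.0627%). At day 42, 27 were called (0.212%), 22 higher (0.172%) and 5 lower (0.0392%). At month 2, 9 were called (0.0705%), 6 higher (0.047%) and 3 lower (0.0235%). An unadjusted p under 0.05 was given to 5.73%, 5.6% and 10.4% of genes. The month 2 library held the fewest UMIs, and the median log2 fold change of all genes was -0.52 there, against -0.08 and -0.14. Leaving out control 2 left 13 called genes at day 30 and 2 at month 2. The controls were shared by the 3 comparisons, and 6 genes were called in each of them, namely Slc5a10, Rbp4, Tspan8, Sh2d5, Gad1 and Ucn3.

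Genes called at single times included some that the 3-library comparison had filtered out for low counts. At day 30, Dlk1, an imprinted membrane protein of fetal and immature endocrine cells, gave 146 UMIs against 5 and 1 at day 42 and month 2 and 17, 2 and 2 in controls. Its log2 fold change at day 30 was 6.56 ± 0.73 (edgeR adjusted p 0.000161). Hpgd, which degrades prostaglandins, differed by 5.58 ± 0.90 at day 30 and was among its 5 largest rises. Gast, the hormone gastrin of the fetal pancreas, gave 152 and 78 UMIs at days 30 and 42 and 0 at month 2, against 64, 14 and 2 in controls, with a log2 fold change of 5.28 ± 0.75 at day 42 (edgeR adjusted p 0.00259). Among the largest falls were Xlr3a and Car10 at day 30 and Lifr, the receptor of leukemia inhibitory factor, at day 42 (-4.12 ± 0.79). At month 2, Rit2, a small GTPase of neurons, rose by 4.34 ± 0.79, and Ttr, which carries thyroid hormone, fell by 1.63 ± 0.29.

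Txnip, an inhibitor of thioredoxin that glucose induces, was high at days 30 and 42 and low at month 2. It stood at 1249, 1988 and 198.7 CPM, against 274.5 to 447.4 in controls. The log2 fold changes were 1.88 ± 0.30 and 2.66 ± 0.30 at days 30 and 42, both called by edgeR (adjusted p 0.00742 and 0.000138), and -0.78 ± 0.36 at month 2 (0.468). Taken as 1 arm, the 3 times gave 1.86 ± 0.51 with an adjusted p of 0.118, again by edgeR. The difference of month 2 from day 30 was itself tested, with a library on each side, each assumed to vary like the replicated groups. For Txnip it was -2.66 ± 0.44 with an edgeR adjusted p of 0.136, and for Trpm5 2.82 ± 0.80 with 0.558. No gene was called in that contrast by edgeR (0 of 12758, or 0%), 990 (7.76%) had an unadjusted p under 0.05, and DESeq2 called 7.

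Finally, the 3 libraries were set against the 5 other libraries from STZ mice with implants, taken at days 6 and 12 and months 5 and 9. No gene was called by edgeR (0 of 9603, or 0%), 477 (4.97%) had an unadjusted p under 0.05, and limma-trend called 0 and DESeq2 5. Intervals in this paragraph run 2 SE to each side of the estimate and are not exact 95% intervals. For the genes above, the log2 difference of 1 to 2 months from the other times was -0.12 for Ucn3 (-1.08 to 0.84). For Slc2a2 it was -0.23 (-1.03 to 0.56). It was 0.30 for Slc5a10 (-0.48 to 1.08), -0.10 for Gpx3 (-0.76 to 0.56) and 0.05 for Cd81 (-0.29 to 0.40). The 15 largest rises were chosen for being high in these same 3 libraries, which favours a difference above 0. For some of them the interval lay above 0, and edgeR called none. These were Rbp4 with 0.87 (0.33 to 1.40), Tspan8 with 0.72 (0.16 to 1.28), S100a6 with 1.44 (0.55 to 2.33) and Ffar4 with 1.28 (0.18 to 2.37). The others were Aqp4 with 0.59 (0.04 to 1.13), Dbn1 with 0.88 (0.12 to 1.64) and Calb1 with 1.79 (1.16 to 2.41). The edgeR adjusted p was 0.136 for Calb1 and 0.97 for each of the rest. Fallers were chosen on these libraries too. Among those named above, the interval lay below 0 for Fer1l6 with -2.54 (-4.77 to -0.30) and B2m with -0.71 (-1.33 to -0.09). It lay above 0 for Ins1 with 0.72 (0.21 to 1.23) and Iapp with 0.39 (0.02 to 0.75). Intervals for Trpm5 (-0.64 to 2.37) and Cox6a2 (-1.43 to 2.44) were wide. The 5 genes of DESeq2, named after their values were seen, were Calb1 and Hist3h2a, with DESeq2 log2 differences of 1.82 and 1.35, and Exoc7, Cd24a and Mrpl4, with -1.99, -1.94 and -1.27. Calb1, in log2 CPM, stood at 6.85, 6.58 and 8.01 at days 30 and 42 and month 2 and at 4.86 to 5.68 in the other 5, and its DESeq2 adjusted p was 0.000973 (0.136 by edgeR).

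**Figure D5:**
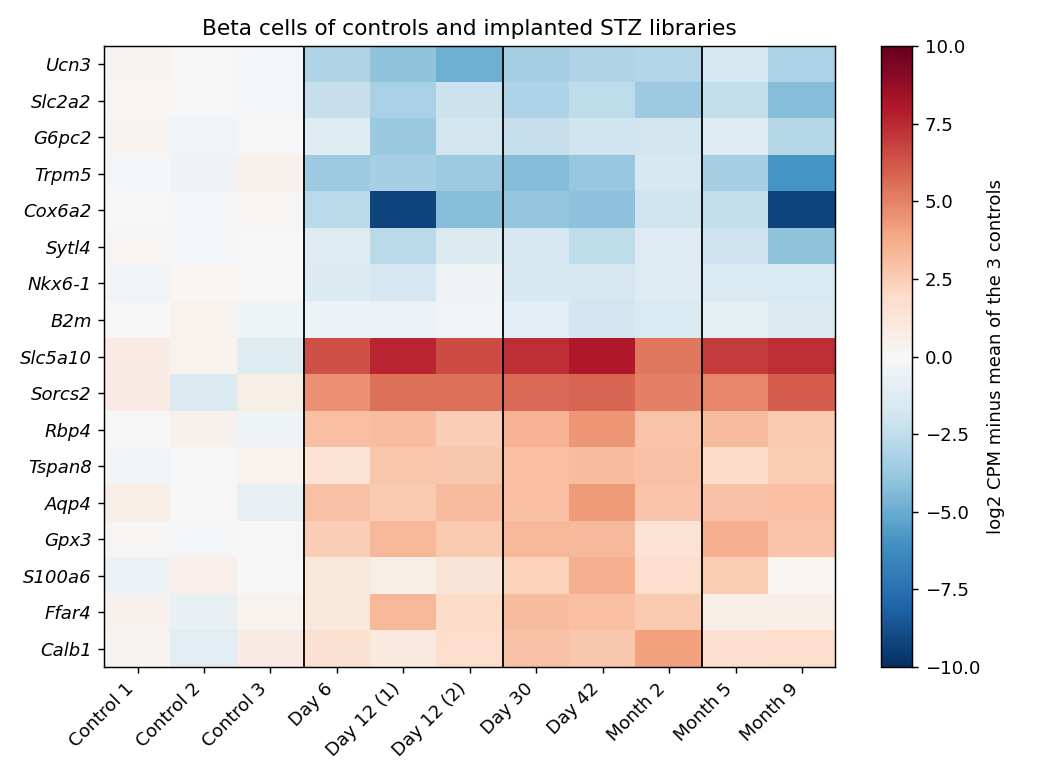
Colour gives the log2 CPM of a gene in the beta cells of each library minus the mean of the 3 controls, for 8 fallers and 9 risers. Controls are at the left and implanted STZ libraries follow in order of time, with days 30 and 42 and month 2 between the second line and the third. Slc5a10 is high and Ucn3 low in every implanted library, and Calb1 is highest at month 2.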

How the data were processed

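Single pancreatic cells were read by mSTRT-seq, which tags molecules with UMIs. The authors deposited UMI counts of 40824 genes in 2999 cells, and all cells were mapped to libraries by name (0 names were shared between libraries). Per the submitters' processing notes the build was mm10, and the tools named, without roles, were UMI-tools 0.5.0, SAMtools 1.3.1, featureCounts 1.5.3 and TopHat2 2.1.0. Strand use and filters on cells are not given in the sources used here. The deposited signal table equalled the count times 100000 over the cell's UMIs without 8 genes, most of them hormones, within 0.01 in 100% of values. It holds 0 mitochondrial genes by symbol, and nothing was done about doublets here.

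Beta cells were taken by thresholds on that table, and their deposited counts were summed per library. Tests on these sums used edgeR 4.0.16 in R 4.3.3 (filterByExpr, TMM, quasi-likelihood F test, threshold 0.05), with DESeq2 1.42.0 and limma 3.58.1 as alternatives. The SE of a log2 fold change is its size over the square root of F and restates that test. Log2 CPM used a prior count of 2. Shares used exact intervals at 95% and exact permutation tests (SciPy 1.17.1, Python 3.11.15). The fits were also run on counts simulated from the fitted model with known changes, and the outcome is not reported here. Such a run cannot show whether libraries of few cells vary as that model assumes.

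Named genes were the 15 largest called rises and falls without overlap, called members of 28 lists (up to 4 each, or the best by p), 13 fixed genes and the 5 largest each way at single times. Members, lists and rule were chosen with earlier results of these data known. Genes the cell rule used stayed in the fits, but their test results are neither counted nor reported, and all p-values were adjusted over all genes of a fit. Reads of near-identical genes and of overlapping antisense genes cannot be told apart in these counts. Values of a few genes chosen by this rule or its lists are not reported here.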

Additional observations from a re-analysis of the deposited data

How the results depend on the processing

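Called genes against control numbered 192 with DESeq2, 292 without a filter on low counts, 26 with limma-trend and 25 under the stricter beta-cell rule. With the replicate block, which uses the batch number and so leans on control 1, 29 genes were called, 11 of them among the 100; the labels do not say that the numbers pair the libraries. Leaving out 1 library gave 37 to 245. Of alternatives added after the data were seen, Prss2 under 300 gave 25 (32.0% higher) and the shared sequencing run 20. Other totals or thinning gave 78 to 108. Ucn3, Slc2a2, G6pc2, Gad1 and Tspan8 kept their call in all 17 settings.

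At day 30, counts were 102 without the filter, 103 with only the 4 groups fitted, 70 with DESeq2, 51 under the stricter rule, 13 with the replicate block and 13 to 24 without a control. At day 42 they were 103, 76 and 66 for the first 3 of these; at month 2, 51, 23 and 28, and 2 to 9 without a control. Month 2 against day 30 gave 24, 1 and 7, then 4 under the stricter rule and 0 to 1 without a control. The contrast with other implanted times gave 5 with DESeq2, 44 without the filter and 0 in all other settings.

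Directions of uncalled genes turned for Cdkn1a (limma-trend -0.091; -0.71 to 1.36 leaving out 1 library, lowest without day 30), Ins1 (stricter rule 0.047), Ddit3 (replicate block 0.11, shared run 0.15; -0.72 to 0.31 leaving out 1 library, highest without control 3) and Sqle (Prss2 under 300 -0.088, shared run -0.12). Tmie at day 42 turned to -4.58 under the stricter rule, which left 4 cells. The difference in the share of beta cells stayed between -75.4 and -48.4 points. The causes of these changes were not tested. Depth limits month 2 most, with 6 beta cells.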

Other observations

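Further called genes, named here after their values were seen, included surface and secreted proteins. Cd44, a receptor for hyaluronan, stood at 64.7, 108.9 and 71.7 CPM at days 30 and 42 and month 2, against 22.2, 34.6 and 18.2 in controls, a log2 fold change of 1.80 ± 0.34 (edgeR adjusted p 0.0168). Serping1, the inhibitor of complement C1, stood at 127.0, 86.3 and 74.9 CPM against 36.5, 22.5 and 14.6, a rise of 2.05 ± 0.34. Uchl1, a deubiquitinase of neurons and islets, stood at 71.8, 100.4 and 78.2 CPM against 36.6, 21.3 and 17.5. All 3 were higher in every STZ library than in any control.

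Among fallers, Maob, an enzyme that degrades amines, stood at 33.8, 33.9 and 22.8 CPM against 129.0, 151.5 and 147.8, a log2 fold change of -2.09 ± 0.27 (edgeR adjusted p 0.000855). Vdr, the vitamin D receptor, fell by 1.83 ± 0.35, and Lpl, lipoprotein lipase, by 1.64 ± 0.37. Rasgrf1, a calcium-responsive activator of Ras that is imprinted in mouse, stood at 13.1, 15.6 and 9.78 CPM against 98.3, 79.7 and 99.8. Atp2a3, a calcium pump of the endoplasmic reticulum, stood at 87.2, 84.8 and 81.5 CPM against 215.1, 211.7 and 254.2, and its STZ libraries were nearly level.

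Phlda3, a p53 target that was filtered out of the comparison for low counts, gave 25, 21 and 0 UMIs after STZ and 20, 12 and 2 in controls, or 14.8, 29.7 and 0 CPM against 1.46 to 1.59, and was not tested.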
